A study of Homo sapiens with 4 samples.

Results

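Of the 18237 RNA polymerase II (Pol II) peaks that the shLacZ and shRRN3 lists held on chromosomes 1 to 22 and X, 1004 lay just past the end of a protein-coding gene. A peak was counted there when its midpoint fell 0 to 10 kb downstream of a protein-coding gene end, outside every protein-coding gene and more than 2 kb from every protein-coding start site. The shLacZ list gave 215 such peaks among 3916, and the shRRN3 list gave 789 among 14321. The rule reads positions only and takes no score, width, overlap or sequence into account.

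The peaks came from chromatin immunoprecipitation with an antibody against Pol II followed by sequencing in SK-OV-3, an established human ovarian cancer cell line. The cells stably carried either a lentiviral short hairpin RNA against RRN3 (shRRN3), the initiation factor that brings RNA polymerase I to ribosomal RNA genes, or shLacZ, a control hairpin whose target, bacterial LacZ, human cells lack. The study asked with these data whether RRN3 affects where Pol II stops transcribing. Each hairpin had 1 Pol II library and 1 input library, the inputs were not analysed here, and the labels do not say which RRN3 hairpin was used.

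Pol II does not stop where a messenger RNA ends. The cleavage and polyadenylation machinery cuts the transcript shortly after a polyadenylation signal, most often AAUAAA, while the polymerase runs on into the DNA beyond. It slows there, the exonuclease XRN2 degrades the uncapped RNA behind it, and the polymerase is released, so that Pol II in this stretch is a usual mark of the termination zone of active genes.

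The gene ends themselves are shown first, for 5 of the genes whose downstream peaks scored highest. Each line gives 25 to 30 bases of the last annotated 50, read from GRCh38 along the gene, with the AATAAA signal in capitals.
VMP1, chr17:59842211-59842240, plus strand: tgtaAATAAAaagagggcctgggaattctt
TPT1, chr13:45333480-45333509, minus strand: gagcAATAAAtctcaaccaacttgagagaa
VIM, chr10:17237569-17237593, plus strand: cttcAATAAAtctttggaaaaactc
PLK2, chr5:58453982-58454010, minus strand: tggcAATAAAgagtatgaaaacgcagaaa
HSPA8, chr11:123057494-123057523, minus strand: cttaAATAAAactatttaaaattggcacca
In these 5 genes the annotated end followed the signal by 15 to 35 bases. F3, which also had high peaks in both lists, held neither AATAAA nor ATTAAA in its last 50 bases. Over all 19970 protein-coding genes, 72% held AATAAA or ATTAAA on the sense strand in their last 50 bases (14382 genes). The share was 72% (95% interval 64.4 to 78.8) for the 161 genes with a shLacZ peak past the end and 73.9% (70.2 to 77.4) for the 594 genes with a shRRN3 peak there, so genes with a peak past the end carried a signal at the annotated end about as often as any gene.

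The next lines show 150 bases centred on peak midpoints 511 to 2452 bp past a gene end, read from GRCh38 along the upstream gene. VIM and PLK2 are given as peaks of high score found by both lists, RPL37 and HIF1A as genes whose peak in the shRRN3 list lay where shLacZ had no peak past the end or no overlapping one. KLF6, PCSK5, TEX26 and HSPA8 are given because their windows held TGACTCA or its reverse complement TGAGTCA, the letters bound by the stress- and growth-responsive AP-1 factors (FOS and JUN proteins), printed in capitals.
VIM, shLacZ peak, chr10:17238537-17238686, plus strand: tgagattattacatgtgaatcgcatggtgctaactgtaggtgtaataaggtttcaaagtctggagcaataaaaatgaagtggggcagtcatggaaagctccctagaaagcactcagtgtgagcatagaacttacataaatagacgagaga
PLK2, shRRN3 peak, chr5:58452636-58452785, minus strand: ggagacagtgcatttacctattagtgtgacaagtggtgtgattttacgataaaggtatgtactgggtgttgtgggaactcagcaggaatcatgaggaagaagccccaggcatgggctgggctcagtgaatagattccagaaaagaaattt
RPL37, shRRN3 peak, chr5:40824596-40824745, minus strand: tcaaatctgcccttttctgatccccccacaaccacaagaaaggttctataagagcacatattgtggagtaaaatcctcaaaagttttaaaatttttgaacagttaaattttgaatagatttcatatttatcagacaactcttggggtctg
HIF1A, shRRN3 peak, chr14:61749837-61749986, plus strand: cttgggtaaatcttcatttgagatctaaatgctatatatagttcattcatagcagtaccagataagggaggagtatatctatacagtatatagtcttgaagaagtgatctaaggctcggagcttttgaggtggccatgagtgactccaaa
KLF6, shLacZ peak, chr10:3775410-3775559, minus strand: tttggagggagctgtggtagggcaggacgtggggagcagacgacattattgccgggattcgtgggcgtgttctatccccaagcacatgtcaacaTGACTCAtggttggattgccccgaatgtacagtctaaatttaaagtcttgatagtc
PCSK5, shLacZ peak, chr9:76365118-76365267, plus strand: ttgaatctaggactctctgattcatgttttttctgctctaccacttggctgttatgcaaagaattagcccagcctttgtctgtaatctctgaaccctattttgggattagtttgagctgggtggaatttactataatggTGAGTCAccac
TEX26, shRRN3 peak, chr13:30977877-30978026, plus strand: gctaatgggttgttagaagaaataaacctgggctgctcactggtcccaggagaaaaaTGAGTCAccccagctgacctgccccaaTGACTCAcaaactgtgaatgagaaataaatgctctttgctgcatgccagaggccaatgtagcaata
HSPA8, shRRN3 peak, chr11:123056221-123056370, minus strand: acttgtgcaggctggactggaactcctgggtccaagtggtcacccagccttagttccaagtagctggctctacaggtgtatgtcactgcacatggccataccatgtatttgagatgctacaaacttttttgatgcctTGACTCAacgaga
None of these windows touched a protein-coding gene, and the HIF1A window lay within the antisense noncoding gene HIF1A-AS3.

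Each library held 1 list of peaks and no read counts, so the depth of sequencing is unknown from them, and with 1 library for each hairpin there was no replicate error to compare with. Intervals are 95% intervals over the number of peaks or genes. They cover counting error only, treat neighbouring peaks as independent and compare these libraries and not the conditions. The score is the peak caller's own, its unit is unknown, and where the scores of both lists stand side by side they are not compared. Since the shRRN3 list was 3.66 times as long as the shLacZ list (3.53 to 3.79), some counts are repeated with only the 3916 shRRN3 peaks of highest score, the reduced list. The shRRN3 peaks were also wider, and the reduced list, chosen by score, does not correct for that.

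Peaks past gene ends were about the same share of both lists. In shLacZ they made up 5.49% (4.8 to 6.25) and in shRRN3 5.51% (5.14 to 5.9), a difference of 0.0191 percentage points (−0.821 to 0.793). In number the shRRN3 list held 3.67 times as many (3.15 to 4.29), which was the ratio of the whole lists. With the reduced list the difference was 0.306 points, again with an interval that included 0 (−0.718 to 1.33). Neither list therefore held a detectably larger share of its peaks past gene ends.

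The peaks thinned out with distance from the gene end in both lists. Close genes leave less room far from an end, so peaks were counted per megabase of sequence that met the rule at each distance. In shLacZ the density was 4.59 peaks per Mb in the first 0.5 kb, 4.63 from 0.5 to 1 kb and 3.79 from 1 to 2 kb. It was 2.37 from 2 to 3 kb, 1.95 from 4 to 5 kb, 1.23 from 5 to 6 kb and 0.473 from 9 to 10 kb. In shRRN3 the density was 12.7 in the first 0.5 kb, 16.5 from 0.5 to 1 kb, 14.7 from 1 to 2 kb, 9.9 from 2 to 3 kb, 6.06 from 4 to 5 kb, 4.91 from 5 to 6 kb and 3.08 from 9 to 10 kb. The shapes were alike, with the highest density in the first 2 kb and a decline beyond it.

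Densities in the first 2 kb were 2.98 times those from 2 to 10 kb in shLacZ (2.26 to 3.94) and 2.68 times in shRRN3 (2.32 to 3.09). At 8 to 10 kb the density had come down to that of the stretch 10 to 50 kb past ends, with ratios of 1.09 in shLacZ (0.585 to 1.89) and 1.02 in shRRN3 (0.751 to 1.35). That farther stretch, counted by the same rule, held 0.743 peaks per Mb in shLacZ (0.636 to 0.863) and 2.97 in shRRN3 (2.75 to 3.2). The stretch 2 to 10 kb in front of gene starts served as a second comparison, counted only where it lay over 10 kb past any gene end. The stretch past ends had no matching limit, since it only had to lie more than 2 kb from starts. The density past ends at the same distances was 2.66 times as high in shLacZ (1.84 to 3.92) and 1.68 times in shRRN3 (1.44 to 1.98).

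**Figure D1:**
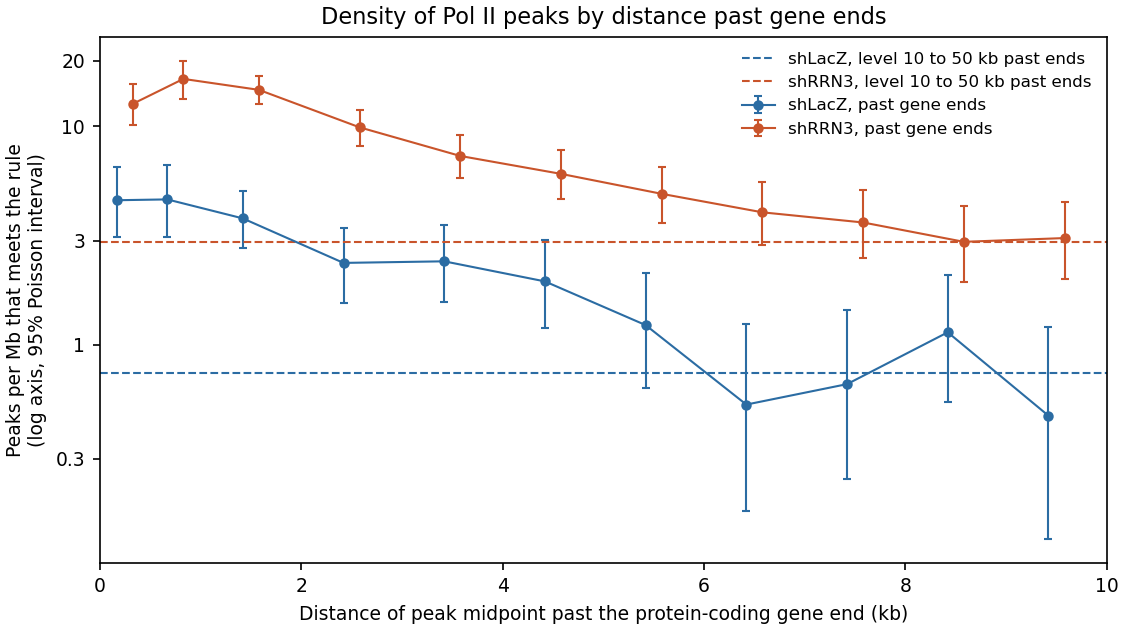
Density of Pol II peaks (peaks per Mb of sequence that met the rule, log axis) against the distance of the midpoint past the gene end in kb, with 95% Poisson intervals as bars, for shLacZ (blue) and shRRN3 (orange). Dashed lines are the levels 10 to 50 kb past ends, 0.743 and 2.97 peaks per Mb, which both curves reach between 6 and 10 kb.

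The median peak lay 2043 bp past the end in shLacZ (1697 to 2630) and 2222 bp in shRRN3 (2015 to 2455). The middle 50% of peaks spanned 917 to 4142 bp in shLacZ and 1061 to 4504 bp in shRRN3. Within 2 kb lay 48.8% of the shLacZ peaks and 46.1% of the shRRN3 peaks, a difference of −2.7 points (−10.2 to 4.76). The reduced list had its median at 1493 bp, so the highest shRRN3 peaks lay nearer to gene ends than the full set.

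Peaks past ends were of ordinary height and width within their list, while a few were among the highest of all. The median width was 306 bp in shLacZ, against 306 bp for all other peaks and 477 bp for peaks within 1 kb of a start. In shRRN3 it was 456 bp, against 431 bp and 612 bp. Peaks outside genes and over 10 kb past ends were narrower than those past ends. Their median was 234 bp (223 to 240) in shLacZ and 366 bp (359 to 372) in shRRN3. The median score was 66.3 in shLacZ (other peaks 65.6) and 73.5 in shRRN3 (other peaks 74.7). Among the 100 highest peaks of each list, 9 in shLacZ and 15 in shRRN3 lay past a gene end, where the whole lists gave 5.49% and 5.51%. Of these, 7 of the 9 and 13 of the 15 were within 2 kb of the end, where all peaks past ends gave 48.8% and 46.1%.

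Most shLacZ peaks past gene ends were found again in shRRN3. A shRRN3 peak overlapped 151 of the 215 by at least 1 bp, or 70.2% (63.6 to 76.3), where the share over all shLacZ peaks was 66.2%. In the other direction a shLacZ peak overlapped 130 of the 789 shRRN3 peaks, or 16.5% (14 to 19.3), where the share over all shRRN3 peaks was 16.9%. Neither share was detectably different from that of all other peaks of its list. The differences were 4.22 points (−2.37 to 10.1) and −0.498 points (−3.01 to 2.32). Those other peaks were mixed. In shLacZ 83.5% (81.3 to 85.4) of peaks within 1 kb of a start were overlapped. Outside genes and over 10 kb past ends 58.6% (55.5 to 61.6) were, and the interval past ends lay between these. In shRRN3 the shares were 24.5% (23.3 to 25.8) and 17.6% (16.3 to 19). The interval past ends lay below the first and met the second. No intervals of these differences were computed. The partner of an overlapped peak past an end was itself past a gene end for 148 of the 151 and 121 of the 130.

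Overlap rose with score. In the lowest quintile (20% of the list by score) 48% of the shLacZ peaks past ends were overlapped, and in the highest quintile 98.2% were (56 of 57), where the other shLacZ peaks ran from 44.3% to 91.7%. In shRRN3 the share was 3.68% in the lowest quintile and 49.1% in the highest, against 4.66% and 44.8% for other peaks. Peaks that were not overlapped were narrow and low, with a median width of 200 bp and score of 55.5 in shLacZ, against 388 bp and 76.7 for overlapped ones. The corresponding medians in shRRN3 were 427 bp and 68.5 against 756 bp and 170.

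**Figure D2:**
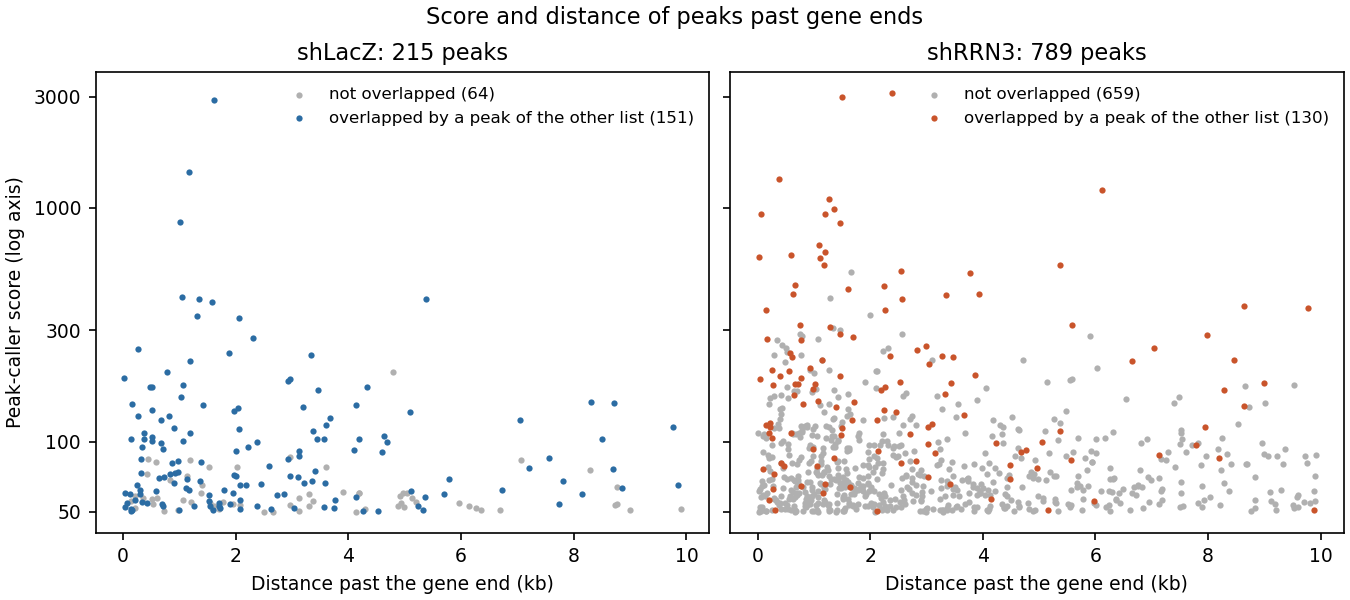
Score of each peak (log axis) against its distance past the gene end in kb, for the 215 shLacZ peaks and the 789 shRRN3 peaks, with coloured points for peaks overlapped by the other list and grey points for the rest. Points above a score of 300 were overlapped in shLacZ without exception, lay mostly within 3 kb of the end, and in shRRN3 included 4 that were not overlapped.

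The peaks followed 161 genes in shLacZ, 0.806% of all protein-coding genes, and 594 genes in shRRN3, 2.97% of them. Both lists had a peak past 125 genes, shLacZ alone past 36 and shRRN3 alone past 469, which made 630 genes in all. At 4 of the 36 genes of shLacZ alone, a shRRN3 peak did overlap but its midpoint lay outside the rule. With the reduced list the numbers were 86, 75 and 105. A gene had 2 or more peaks past its end in 32 cases in shLacZ and 124 in shRRN3, and the most past 1 gene were 6 and 8.

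VMP1 had the highest peak past an end in both lists. It encodes a membrane protein of the endoplasmic reticulum needed to form autophagosomes, and the gene for miR-21, a widely studied oncogenic microRNA, lies close to its end. In shLacZ 5 peaks ran from 37 to 4323 bp past the end, of which the highest scored 2894 and was 2773 bp wide. In shRRN3 1 peak of 4864 bp at the ceiling score of 3100 covered the same stretch. The far edges lay 4692 bp and 4826 bp past the end, so the stretch was alike in length and cut differently into peaks. The mature miR-21 (sequence from RefSeq, GRCh38.p14) ended 961 bp before the VMP1 end and no peak past the end covered it, and its bases 2 to 8, the seed, are in capitals.
hsa-miR-21-5p, chr17:59841273-59841294, plus strand: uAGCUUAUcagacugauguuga

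TPT1, VIM and PLK2 also had peaks past the end in both lists, in different numbers. TPT1, which encodes the abundant translationally controlled tumour protein, had 6 shLacZ peaks with a highest score of 338 and a far edge at 7778 bp, and 4 shRRN3 peaks with a highest score of 2971 and a far edge at 8614 bp. Past VIM, the gene for the intermediate filament vimentin, the single shLacZ peak scored 872 at 1019 bp, and the higher of 2 shRRN3 peaks scored 995 at 1363 bp. Past PLK2, the gene for a polo-like kinase, the 6 shLacZ peaks ended at 2288 bp and the 3 shRRN3 peaks at 2802 bp.

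F3, NFKBIZ, CDC25B and HSPA8 completed the genes that ranked high in shLacZ. F3, which encodes tissue factor, the trigger of blood clotting, had 5 shLacZ peaks up to 2474 bp and 2 shRRN3 peaks up to 2734 bp past the end. Past NFKBIZ, the gene for an atypical IκB protein, 3 shLacZ peaks reached 1607 bp and 2 shRRN3 peaks reached 2296 bp. CDC25B, the gene for a phosphatase that activates cyclin-dependent kinases, had 1 shLacZ peak that ended at 2513 bp, and 4 shRRN3 peaks of which the last ended at 7916 bp, inside noncoding genes. HSPA8, which encodes the constitutive heat shock cognate protein, had 2 shLacZ peaks up to 2823 bp and 3 shRRN3 peaks up to 4314 bp.

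Over the 125 genes with a peak past the end in both lists, the last peak reached farther in shRRN3 by a median of 138 bp (87 to 293), with medians of 2725 bp and 3411 bp. The far edge lay farther out in shRRN3 in 97 genes and nearer in 28, and it was within 500 bp in 70. The midpoint of the first peak moved by −36 bp (−95 to 17). Peaks past these ends covered 436 bp more in shRRN3 (304 to 595), with medians of 442 bp and 1013 bp. The wider shRRN3 peaks bear on each of these edges, and the part of width in the difference was not tested. With the reduced list, 86 genes remained in the comparison and the far edge lay 160 bp farther (70 to 299). Peaks past these 86 ends still covered more in shRRN3, with medians of 556 bp in shLacZ and 1174 bp in shRRN3, so this repeat does not take width into account.

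ID1 and H3-3B were genes where the midpoint rule decided the count. ID1, an inhibitor of differentiation induced by BMP signals, had the second highest shLacZ peak past an end, with a score of 1421, a width of 2585 bp and its midpoint 1164 bp past the end, while the shRRN3 peak that overlapped it had its midpoint outside the rule. H3-3B, a histone gene that is used outside S phase, had a shRRN3 peak of 2792 bp with a score of 939 and its midpoint 65 bp past the end, and in shLacZ a peak over its last 1 kb but none past the end. S100A6, which encodes a calcium-binding protein, had 1 peak past the end in each list, a shLacZ peak of 1139 bp and score 174 and a shRRN3 peak of 4232 bp and score 1326 that began inside the gene. Peaks that began before the gene end numbered 14 in shLacZ and 65 in shRRN3.

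HIF1A led the shRRN3 peaks that no shLacZ peak overlapped. HIF1A, the oxygen-regulated transcription factor, had 1 shLacZ peak of 762 bp, 2919 bp past the end with a score of 181. In shRRN3 it had 6 peaks between 283 and 7416 bp past the end, 5188 bp in all, and the highest scored 532 at 1653 bp where shLacZ had none. Next by score came ZFP36L1, an mRNA-decay factor, with a score of 412 at 1284 bp, and SLC20A1, a phosphate transporter, with 347 at 1998 bp. RPLP1, a protein of the ribosomal stalk, followed with 307 at 1333 bp, and YWHAZ, an adaptor that binds phosphorylated proteins, with 299.82 at 1466 bp.

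NADK, the NAD kinase gene, led the shLacZ peaks that no shRRN3 peak overlapped. Its peak, 4785 bp past the end, scored 198 and was 125 bp wide, and a second shLacZ peak 5087 bp past the same end was overlapped in shRRN3. The next 4 by score lay past ELK3, GAGE2E, HNRNPH1 and TRA2B, with scores of 83.6 to 86.05 and distances of 445 to 7065 bp. GAGE2E belongs to a tandem family of nearly identical genes on chromosome X, where reads cannot be placed with certainty.

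Some peaks past coding genes lay in noncoding genes of their own. In shLacZ 46 peaks (21.4%, 16.1 to 27.5) and in shRRN3 157 (19.9%, 17.2 to 22.9) were inside a long noncoding RNA gene, and 48 (22.3%) and 120 (15.2%) were within 1 kb of the start of a noncoding gene or pseudogene. Peaks near such a start were overlapped by the other list in 87.5% of cases in shLacZ and 32.5% in shRRN3. Peaks clear of all these genes, 150 in shLacZ and 567 in shRRN3, lay nearer to the coding end by the median, at 1924 bp (1532 to 2218) and 1975 bp (1747 to 2207), than peaks in or near noncoding genes, at 3102 bp (1884 to 4129) and 3250 bp (2528 to 3749). The intervals overlapped in shLacZ and were apart in shRRN3, and no interval of the difference was computed.

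MON2 and ARMH1 were clear cases. The 3 shLacZ and 7 of the 8 shRRN3 peaks past MON2, a membrane trafficking gene, lay in the host gene of the microRNA let-7i or in LINC01465, and both lists had a peak over the let-7i gene itself. The highest of these, in shRRN3, scored 1192 and was 3181 bp wide. Past ARMH1 a peak of 1101 bp in shLacZ (score 409) and of 1121 bp in shRRN3 (score 568) covered RNU5D-1, a gene for a spliceosomal RNA that Pol II transcribes. The mature let-7i (RefSeq, GRCh38.p14) is shown with its seed in capitals.
hsa-let-7i-5p, chr12:62603691-62603712, plus strand: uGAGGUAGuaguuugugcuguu

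Genes with a peak past the end more often had a peak at their own start than genes in general. In shLacZ 39 of the 161 genes did, or 24.2% (17.8 to 31.6), against 7.58% of all protein-coding genes. In shRRN3 301 of 594 did, or 50.7% (46.6 to 54.8), against 23.8% of all. In shRRN3 the share was 61% (55.3 to 66.4) for genes with a peak in the first 2 kb, 50% (43.2 to 56.8) for 2 to 5 kb and 41.8% (33.7 to 50.2) for 5 to 10 kb. The shLacZ shares of 27.9%, 23.3% and 22.9% had intervals that overlapped widely.

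Seen from the start, few genes with Pol II at the start had a peak past the end. Of 1514 genes with a shLacZ start peak, 2.58% had one (1.84 to 3.5), against 0.661% (0.549 to 0.789) of genes without a start peak. In shRRN3 it was 6.33% of 4754 genes (5.66 to 7.06) against 1.93% (1.71 to 2.16). A peak over the last 1 kb of the gene body was present in 17.4% of the shLacZ genes (11.9 to 24.1), where all genes gave 0.666%, and in 19.5% of the shRRN3 genes (16.4 to 22.9), where all genes gave 2.52%. A peak that spans the gene end counts on both sides here. Without the peaks counted past an end, the shares were 11.8% (7.26 to 17.8) against 0.621% of all genes in shLacZ and 11.8% (9.3 to 14.7) against 2.26% in shRRN3, a count added after the values were seen.

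Gene groups were then set beside the background of 0.806% and 2.97% of genes with a peak past the end. Splicing factors and hnRNPs, which bind and splice pre-messenger RNA, had 8 of 40 genes in shLacZ (20%, 9.05 to 35.6) and 12 in shRRN3 (30%, 16.6 to 46.5), with 7 in both. SFPQ, a splicing factor and DNA-binding protein, had 3 peaks in each list, with highest scores of 185 and 540. SRSF3, a serine/arginine-rich splicing factor, had 4 and 5 peaks with highest scores of 91.67 and 529. The others in both lists were HNRNPA1, HNRNPD, HNRNPK, SRSF10 and TRA2B, and the SRSF10 peaks lay nearest to an end, 9 and 149 bp past it, in a gap of 884 bp to a convergent gene.

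Cytoskeleton genes had 6 of 44 in shLacZ (13.6%, 5.17 to 27.4) and 14 in shRRN3 (31.8%, 18.6 to 47.6), and all 6 were in both. They were VIM, the actin gene ACTG1, the tubulin genes TUBA1B and TUBA1C, the actin crosslinker FLNA and the actin-sequestering TMSB4X. TUBA1B peaks scored 172 and 426 and TMSB4X peaks 53.9 and 317, and ACTG1 had 2 shLacZ peaks of 248 at most and 1 shRRN3 peak of 114.

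Ribosomal protein genes, which encode the protein part of the ribosome, had the widest gap between the lists among the 10 groups. In shLacZ 3 of 79 had a peak past the end (3.8%, 0.79 to 10.7), and in shRRN3 25 had one (31.6%, 21.6 to 43.1), a difference of 27.8 points (16.4 to 39). The reduced list had 16 (20.3%), 16.5 points above shLacZ (6.43 to 26.9). Over all protein-coding genes the reduced list had a peak past 86 genes shared with shLacZ and past 105 others. At starts, 51 of the 79 genes had a peak in shLacZ, 65 in shRRN3 and 49 in both. All protein-coding genes gave 7.58% and 23.8% at starts. With 51 of 79 already present in shLacZ, starts left less room for a gap, so the gaps at starts and ends were not compared. The 3 genes in both lists were RPL7, with scores of 155 and 78.69, RPL21, with 53.27 and 128, and RPS12, with 114 and 409. RPL37 had the highest peak among the 22 genes of shRRN3 alone, a peak of 2214 bp with a score of 628 at 591 bp that was overlapped by a shLacZ peak with its midpoint outside the rule, and RPLP1 (307) and RPL13 (283) came next. The 22 included 14 large-subunit and 8 small-subunit genes.

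Translation factors had 3 of 37 in shLacZ (8.11%, 1.7 to 21.9) and 6 in shRRN3 (16.2%, 6.19 to 32), with EIF1, EIF5 and TPT1 in both. EIF1, which selects the start codon, had scores of 65 and 467, and EIF5, which triggers GTP hydrolysis on the initiation complex, had 109 and 274. Chaperones had 3 of 30 (10%, 2.11 to 26.5) and 6 (20%, 7.71 to 38.6), with HSPA8 and the mitochondrial HSPA9 in both. Immediate early genes, which growth factors and stress induce within minutes, had 4 of 34 (11.8%, 3.3 to 27.5) and 8 (23.5%, 10.7 to 41.2), with IER2, KLF6 and ZFP36L1 in both. Glycolysis had 1 of 18 (5.56%, 0.141 to 27.3) and 4 (22.2%, 6.41 to 47.6), with the glucose transporter gene SLC2A1 in both.

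The factors that end transcription and the autophagy genes had intervals that included the background in both lists, as did the histone genes below. In shLacZ alone, the intervals of the ribosomal protein genes and of glycolysis also included it. Of 37 genes for 3′-end processing and termination factors, only SCAF4 had a peak past its end in shLacZ (score 68.82 at 836 bp, 2.7% of the group, 0.0684 to 14.2), and only CPSF6 and CPSF7, subunits of cleavage factor I, had one in shRRN3 (scores 93.28 and 67.26, 5.41%, 0.661 to 18.2). Of 46 core autophagy genes, VMP1 had peaks in both lists and ATG12 in shRRN3 alone, with a score of 54.72 at 866 bp, which made 2.17% (0.055 to 11.5) and 4.35% (0.531 to 14.8). Neither list had one past RRN3, COMMD3 or BMI1, nor past the autophagy genes that the study measured, which were ATG5, ATG16L1, BECN1, OPTN and RPTOR. Only 0.806% (shLacZ) and 2.97% (shRRN3) of all protein-coding genes had a peak past the end, so having none does not set these genes apart. The stretch past COMMD3 lies inside the annotated COMMD3-BMI1 readthrough gene and so could not hold one.

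Replication-dependent histone genes, whose messenger RNAs end without polyadenylation, had no peak past the end among 67 genes in either list, which allows a share of up to 4.48% by 3 counts of the total and 5.36% by the exact interval, while 33 and 48 of them had a start peak. Room past the end bears on such counts. Points 0.5 to 9.5 kb past each end were laid out every 1 kb, and 28 of the 67 histone genes (41.8%) had no point that met the rule, against 32.1% of all protein-coding genes, 44.3% of the ribosomal protein genes and 17.6% of the immediate early genes. Out of 10 points, the median histone gene had 1 that met the rule, against 5 for all protein-coding genes. The medians were 1 for ribosomal protein genes and 10 for immediate early genes. The absence of peaks past histone genes thus rests on little sequence that could hold one.

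**Figure D3:**
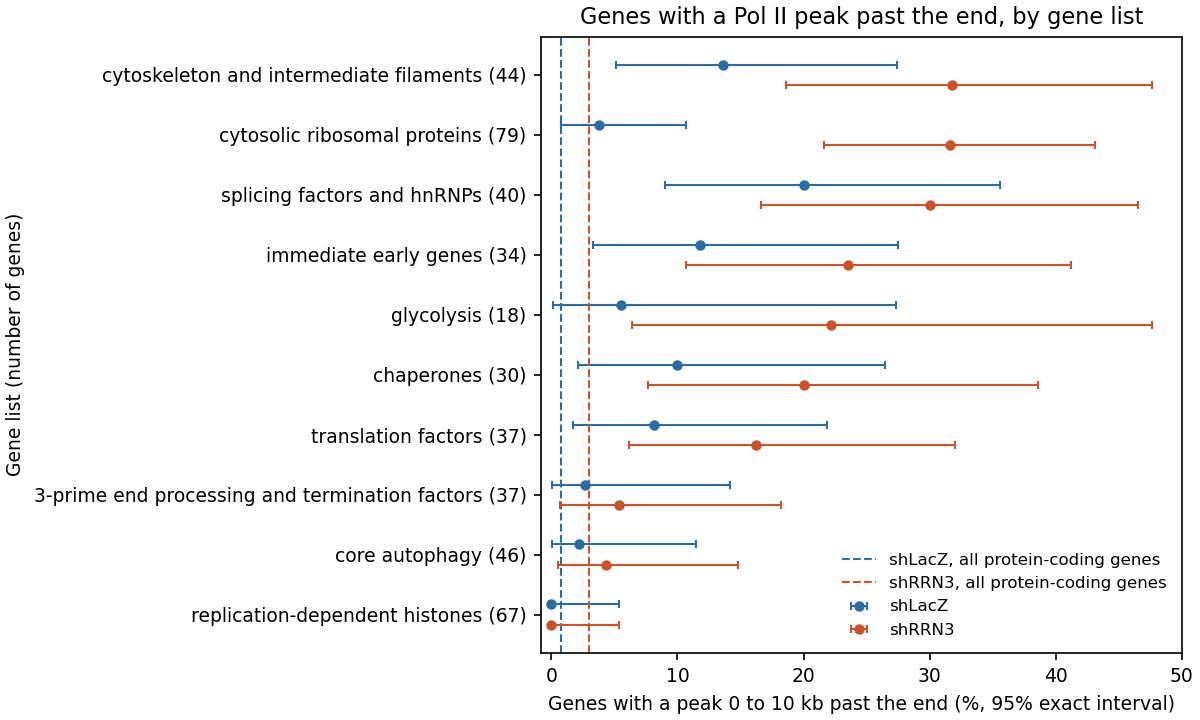
Share of genes with a peak 0 to 10 kb past the end (%, points with 95% exact intervals) in 10 gene lists, with the number of genes in brackets, for shLacZ (blue) and shRRN3 (orange). Dashed lines are the shares over all protein-coding genes, 0.806% and 2.97%. The ribosomal protein genes show the widest gap, 3.8% against 31.6%, and the histone genes are at 0 in both.

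The sequence at the peaks differed from that of the stretch they lay in. In the 200 bases around the midpoint, the word TGACTCA, counted on both strands and so also as TGAGTCA, was present in 29 of 215 shLacZ peaks (13.5%, 9.22 to 18.8) and 107 of 789 shRRN3 peaks (13.6%, 11.2 to 16.2). Among 102689 windows of the same length at the points past gene ends, whether or not a peak lay there, the share was 3.09% (2.98 to 3.19). Peaks within 1 kb of a start held it in 2.42% (shLacZ) and 2.63% (shRRN3). A match is a description of the sequence and not a site of binding.

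Peaks outside genes and far from ends held the word more often than those past ends, and in shRRN3 so did peaks inside genes. Outside genes and over 10 kb past ends the share was 19.2% in shLacZ and 35.5% in shRRN3, which was 5.76 points (0.0605 to 10.4) and 21.9 points (18.9 to 24.7) above the peaks past ends. Inside genes and over 2 kb from starts the share was 17% in shLacZ and 23.5% in shRRN3. That was 3.46 points (−2.12 to 7.96) and 9.97 points (7.17 to 12.5) above the peaks past ends. Within the shRRN3 peaks past ends the share was 9.34% in the first 2 kb (6.56 to 12.8) and 17.2% from 2 to 10 kb (13.7 to 21.1). It was 9.7% (7.08 to 12.9) where the upstream gene had a start peak and 18.3% (14.4 to 22.7) where it had none. In shLacZ the corresponding shares, 13.3% and 13.6% by distance and 11.1% and 14.5% by start peak, had intervals of the difference that included 0. With the reduced list the share past ends was 11% (7.26 to 15.8), 10% in the first 2 kb and 12.4% beyond, and 30.4% (27.1 to 33.9) far from ends.

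Named genes carried the word at several positions. KLF6, an immediate early transcription factor gene, held it in both lists' peaks, at 511 and 577 bp. The peaks past PCSK5, a proprotein convertase gene, at 2218 and 2237 bp, and past TEX26, at 2443 and 2452 bp, held it too, and these 4 peaks were 250 to 447 bp wide. Peaks were ranked by score only where the word lay in a window of the length printed above, which is shorter than the window counted. Of these peaks, the highest was that of HSPA8 in shRRN3 (score 650) and that of SRSF10 in shLacZ (score 188). Peaks with the word only in the rest of the counted window were not ranked.

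**Figure D4:**
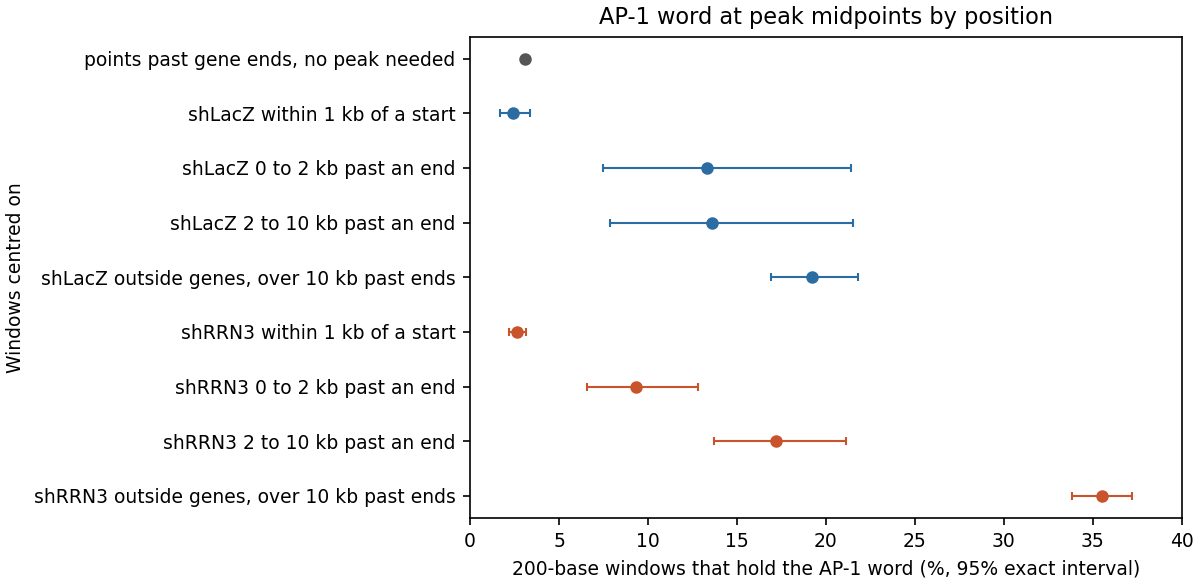
Share of 200-base windows that held the AP-1 word (%, points with 95% exact intervals), for points past gene ends regardless of peaks (grey), shLacZ peaks (blue) and shRRN3 peaks (orange), by position relative to genes. The share is 2.42% and 2.63% at starts, 9.34% to 17.2% past ends, and 19.2% and 35.5% far from ends. Peaks inside genes and over 2 kb from starts (17% and 23.5%) are not drawn.

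Simple base runs set the peaks off less. GGGGG, counted on both strands and so also as CCCCC, was in 28.8% of the shLacZ windows (22.9 to 35.4) and 26.2% of the shRRN3 windows (23.2 to 29.5), against 20.6% of the windows past gene ends. TTTTT or AAAAA was in 49.3% (42.4 to 56.2) and 48% (44.5 to 51.6), against 63.9%. Base composition was near that of the surroundings, with a median GC share of 45.5% in both lists, 44% at the points past ends and 65% and 64.5% at starts. No peak past an end had 20% or more of its bases in GGAAT or ATTCC, the repeat unit of a satellite family.

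The farthest peaks counted lay 9910 bp past MELK in shLacZ and 9913 bp past EREG in shRRN3, and the first beyond lay 10009 and 10008 bp past FRMD8. The exclusion around starts removed more, since 136 shLacZ and 503 shRRN3 peaks past an end lay within 2 kb of a start. The peaks nearest to that limit lay 2057 bp (past CXCL1, shLacZ) and 2011 bp (past ALDOA, shRRN3) from a start inside the rule, and 1988 bp (past GPHN) and 1954 bp (past PRSS33) outside it. Another gene end within 10 kb was present for 37 shLacZ peaks (17.2%) and 173 shRRN3 peaks (21.9%), which were assigned to the nearer gene.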

How the data were processed

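Pol II ChIP-seq peak lists of 1 shLacZ and 1 shRRN3 library of SK-OV-3 cells were used. Per the file contents, each line that the authors deposited holds a position, a peak name and a score, with peaks called separately in each library by a program named MACS in the peak names, and the unit of the score, the version, the threshold, the use of the input and the aligner are not given in the sources used here. The lowest score was 50 and the ceiling 3100 in both lists, and scores were compared only within a list, except that an alternative applied the same score minimum to both. Coordinates are GRCh38 (hg38 in the submitters' processing notes, and the sequence versions in the lists). Peaks off chromosomes 1 to 22 and X were left out, 98 in shLacZ and 42 in shRRN3.

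Gene spans came from GENCODE release 44 (19970 protein-coding genes), and the peak was assigned to the nearest gene end upstream of its midpoint. Intervals were exact Poisson ones for densities, exact conditional ones for ratios, from order statistics for medians, exact Clopper-Pearson ones for shares and Newcombe's for differences of shares. No p-value was computed, since each hairpin had 1 library. Genes were named when they followed the 10 highest peaks of a list, the 5 highest that were not overlapped or the 5 with the most bases covered, when the study followed them, or when they belonged to a gene list and had a peak in both lists. Some of the genes this rule selects are not reported here. Other genes, the words searched in the sequence and the windows printed were chosen after values were seen. The members and gene lists were chosen with earlier results of these data known. Alternatives changed the score minimum, list length, window, starts, ends, dense regions, overlap and position rule. The code was tested on simulated peaks. Computing was done in Python 3.11.15 with scipy 1.17.1, pandas 2.3.3, numpy 2.4.6 and, for plots, matplotlib 3.10.9.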

Additional observations from a re-analysis of the deposited data

How the results depend on the processing

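Each of 12 values was recomputed under 6 or 7 alternatives, 77 in all, and 53 stayed within the counting interval or within 1.5 times a count. The difference in share between the lists, the only value that can be negative, fell on both sides of 0 (from −0.23 to 0.401 points). Each of its intervals included 0. A window of 5 kb gave shares of 4.55% (shLacZ) and 4.32% (shRRN3) and median distances of 1587 and 1597 bp. Starts of every annotated gene gave shares of 3.91% and 4.31%, 13.6% of shRRN3 peaks overlapped and 83 genes in both lists. Ends of canonical transcripts gave 6.95% and 6.75%. Requiring both edges gave 4.95% for shRRN3. At a score of at least 66.05, the median of the full shLacZ list, 85.2% of shLacZ peaks were overlapped, 44.7% of shRRN3 genes had a start peak, and the lists shared 70 genes, with 12 more in shLacZ and 304 more in shRRN3. Keeping only the highest 3916 shRRN3 peaks gave a median distance of 1493 bp, overlaps of 55.3% and 41%, start peaks at 39.8%, and 75 and 105 genes in 1 list alone. Requiring 50% of both peaks gave overlaps of 30.2% and 8.37%. Depth is unknown from the lists, and its part in peaks found in 1 list alone was not tested. No paired analysis was possible because there was 1 library per hairpin.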
